A study of Oryza sativa Japonica Group with 15 samples.

Results

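The 162 genome bins of 10 kb described here are those in which far contacts kept appearing in different rice cells. A far contact was a pair of restriction fragments, counted once per cell, that lay on different chromosomes or at least 20 kb apart on the same chromosome, and each of its ends was placed at the midpoint of its fragment. A bin was a member, called a recurring bin, when it held an end of a far contact in 3 or more of the 15 cells. Of 37272 bins in the genome, 162 (0.435%) met this rule, and 3319 bins held any far contact at all, so that 4.88% of the contacted bins were members. The members were chosen by the far contacts themselves, so counts of cells and far contacts per bin are given as a description.

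Single-cell Hi-C had been applied to Oryza sativa (rice), japonica, cultivar Dongjin. The cells were 4 eggs from florets that had not been pollinated, 4 sperm from stamens, 3 unicellular zygotes isolated 6 to 8 hours after pollination, and 4 somatic cells from the shoots of seedlings 12 days after germination. No plant, floret or seedling of origin is named in the labels, so each cell type counts as 1 sample and no test between cell types was made. The files held 2236 to 17291 read pairs per cell, which gave 761 to 4576 contacts and 130 to 558 far contacts per cell. The submitters' design text counts only 2 shoot cells, whereas 4 are listed, so shares are also given without shoot cells 3 and 4.

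Single-cell Hi-C cuts the fixed DNA of 1 nucleus with a restriction enzyme and ligates ends that lie close together, and each read pair then reports a joined pair of places. A read is assigned to the place in the reference where its sequence matches best, so stretches that adjoin each other in the sampled DNA but lie far apart in the reference also appear as far contacts. Rice chromosomes are known to carry insertions of plastid and mitochondrial DNA and transposons in many copies. Whether the recurring bins hold such sequence was not tested, because no genome of the files' build was used here, and for the same reason no gene is named and no sequence is shown. Positions are those of the files, and their build is not given in the sources used here.

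Membership was graded rather than sharp. There were 2972 bins with far contacts in 1 cell, 185 in 2 cells, 43 in 3 cells, 24 in 4 cells and 95 in 5 or more cells, and 18 bins were seen in 10 or more. Just inside the limit, bins seen in 3 cells held a median of 5 far contacts (range 3 to 21). Just outside it, bins seen in 2 cells held a median of 3 (range 2 to 44). Recurring bins held 3 to 111 far contacts (median 11) and reached 1 to 74 partner bins (median 6).

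Within a bin, the far contacts often fell on a short stretch. The median recurring bin had 3 restriction fragments with far contacts, and 75 of 162 had at most 2. The fragment midpoints spanned under 1 kb in 80 bins and 5 kb or more in 38 bins. At the other end of the range, 53 bins had 10 or more partner bins and 11 had a single one. The contacts of most bins went to other chromosomes, with a median of 100% of a bin's far contacts being between chromosomes (range 9.09% to 100%). The same share is not given here for far contacts outside the recurring bins, so it is not shown to be particular to them.

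The recurring bins were unevenly spread over the chromosomes. Chromosome 12 held 34 of them, or 1.24% of its bins, and chromosome 1 held 26. Chromosome 5 held the fewest, 5 bins or 0.168% of its bins. Most members stood alone, and 46 lay side by side in 12 runs. The longest run had 11 bins, at chr12:20460000-20569999, and a run of 6 bins followed at chr12:20610000-20669999. Runs of 5 bins lay at chr1:33510000-33559999, chr9:4690000-4739999 and chr12:13370000-13419999.

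The run of 5 bins that starts at 13.37 Mb of chromosome 12 held the members seen in most cells. The bin chr12:13370000-13379999 had far contacts in 14 of 15 cells, with 10, 15, 0 and 28 in the eggs, 2, 1, 1 and 6 in the sperm, 10, 2 and 5 in the zygotes, and 9, 4, 1 and 2 in the shoot cells. Its neighbour chr12:13380000-13389999 had 8, 5, 0 and 21 in the eggs, 3, 1, 0 and 7 in the sperm, 6, 20 and 9 in the zygotes, and 5, 6, 1 and 8 in the shoot cells. The next bin, chr12:13390000-13399999, had 11, 2, 1 and 32 in the eggs, 0, 4, 0 and 4 in the sperm, 9, 12 and 8 in the zygotes, and 1, 3, 1 and 2 in the shoot cells. Egg 4 was the highest cell at all of these 3 bins, egg 3 and sperm 3 were at 0 or 1, and the cell types overlapped at each bin.

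Outside that run, the bin chr4:32880000-32889999 was seen in 12 cells and held 109 far contacts. It had 18, 8, 1 and 23 in the eggs, 1, 2, 0 and 5 in the sperm, 4, 28 and 12 in the zygotes, and 1, 6, 0 and 0 in the shoot cells. The bin chr1:33530000-33539999, also in 12 cells, had 23, 5, 0 and 4 in the eggs, 2, 1, 0 and 0 in the sperm, 2, 6 and 5 in the zygotes, and 2, 7, 1 and 2 in the shoot cells. At both bins the highest value lay in an egg or a zygote, the lowest egg was at 0 or 1, and the cell types overlapped. The other named members in 11 or 12 cells were the bin at 13.4 Mb of chromosome 12, the bin at 13.64 Mb of chromosome 3, the bin at 18.68 Mb of chromosome 1, the bin at 20.62 Mb of chromosome 12 and the bin at 4.72 Mb of chromosome 9, with 44 to 71 far contacts each. A value of 0 in a cell means that none was seen at that cell's depth.

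**Figure D1:**
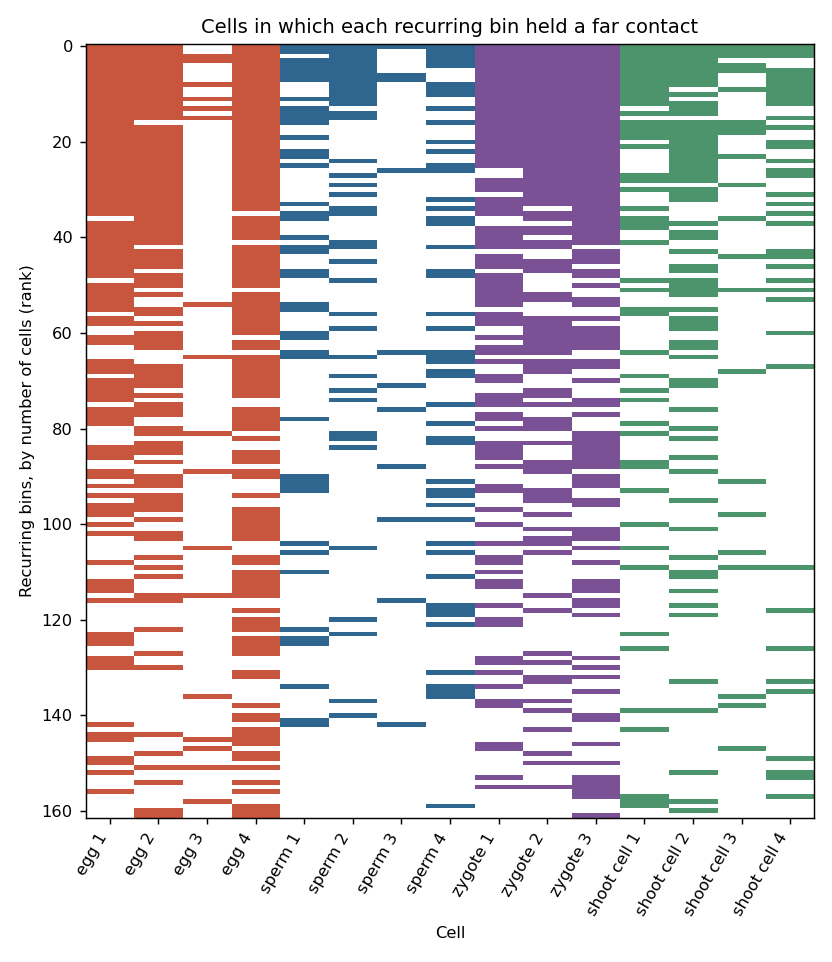
Recurring bins (1 line each, in order of the number of cells, most at the top) that held a far contact in each of the 15 cells (columns, coloured by cell type). Egg 3, sperm 3 and shoot cell 3 show few bins, with 17, 11 and 22 of 162 seen.

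Cells differed widely in how many recurring bins they showed. The eggs showed 100, 95, 17 and 121 of them, the sperm 44, 39, 11 and 49, the zygotes 91, 86 and 100, and the shoot cells 50, 66, 22 and 39. By cell type, 147 recurring bins were seen in some egg, 95 in some sperm, 140 in some zygote and 109 in some shoot cell. All 4 cell types shared 52 bins, 67 bins were seen in 3 cell types, 39 in 2 and 4 in 1, of which 3 were seen in eggs and 1 in zygotes. A member needed 3 or more cells and each cell type had only 3 or 4, so the rule itself favours bins seen in several types. The overlap that the rule alone would give was not computed. There were fewer zygotes than cells of the other types, and far contacts per cell differed, so these counts were not compared between cell types.

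The share of a cell's far contacts that touched a recurring bin was high in all zygotes and varied widely among the eggs. It was 57.5%, 54.5%, 4.66% and 82.8% in the eggs, 11.3%, 18.1%, 4.18% and 47.7% in the sperm, 64.9%, 56.9% and 78.0% in the zygotes, and 15.6%, 33.1%, 4.87% and 18.9% in the shoot cells. All zygotes were above all sperm and shoot cells, egg 3 was as low as sperm 3 and shoot cell 3, and egg 4 was the highest cell. The mean share was 49.9% ± 32.7 in eggs (SD, n = 4), 20.3% ± 19.1 in sperm (SD, n = 4), 66.6% ± 10.7 in zygotes (SD, n = 3) and 18.1% ± 11.7 in shoot cells (SD, n = 4). Sperm 4 decided the sperm mean, which was 11.1% without it. The shoot cell mean was 23.7% with bins chosen and averaged without shoot cells 3 and 4. The exact 95% binomial interval of a cell's share, which covers counting error only, ran for example from 78.7% to 86.4% in egg 4 and from 2.24% to 7.04% in sperm 3. Read pairs carry no molecular identifiers and are not independent molecules.

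Because a cell helps to choose its own bins, the bins were chosen again for each cell type from the cells of the other types only. The share at such bins was 52.9%, 52.1%, 3.23% and 74.6% in the eggs, 8.72%, 17.3%, 3.54% and 40.8% in the sperm, 59.9%, 53.4% and 71.7% in the zygotes, and 13.8%, 31.3%, 2.55% and 16.5% in the shoot cells. The order of the cell types by their mean was the same as before, at 45.7% ± 30.2 for eggs (SD, n = 4), 17.6% ± 16.5 for sperm (SD, n = 4), 61.7% ± 9.28 for zygotes (SD, n = 3) and 16.0% ± 11.8 for shoot cells (SD, n = 4). The sperm mean was 9.84% without sperm 4, which put it below the shoot cells, and the shoot cell mean was 22.6% without shoot cells 3 and 4. Of the 105 bins chosen without eggs, 90 (85.7%) held far contacts in some egg, against 2.95% of all bins. The corresponding counts were 76 of 143 (53.1%, against 2.41% of all bins) for sperm, 101 of 123 (82.1%, against 1.40%) for zygotes and 90 of 143 (62.9%, against 3.40%) for shoot cells. Bins chosen in other cell types were therefore seen more often than an average bin in every cell type.

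Read depth at the recurring bins was examined through near read pairs, those under 20 kb apart within a chromosome, which the membership rule did not use. Counted over all bins, a recurring bin held more near read pairs than any other bin on average in 14 of 15 cells. The ratio of the mean per recurring bin to the mean per other bin was 44.2, 28.2, 2.65 and 88.4 in the eggs, 2.64, 6.54, 0.548 and 36.6 in the sperm, 18.5, 30.9 and 50.0 in the zygotes, and 3.94, 18.6, 1.56 and 12.7 in the shoot cells. The ratio was below 1 in sperm 3 only, and egg 4 was the highest cell. The share of bins with any near read pair was 2.47% to 27.8% over the recurring bins and 0.461% to 5.28% over the other bins, and the recurring bins had the higher share in 15 of 15 cells. Against the other bins that held an end of any read pair in the cell, the ratio had a median of 0.186 and was above 1 in egg 4 only, and the median was 0.334 without shoot cells 3 and 4. That second ratio sets all 162 recurring bins, seen in the cell or not, against bins that were seen in it by definition. Over bins with at least 1 near read pair on both sides, recurring bins held more near read pairs per bin in 9 of 15 cells. They held fewer in sperm 1 and 3, zygote 1 and shoot cells 1, 3 and 4.

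**Figure D2:**
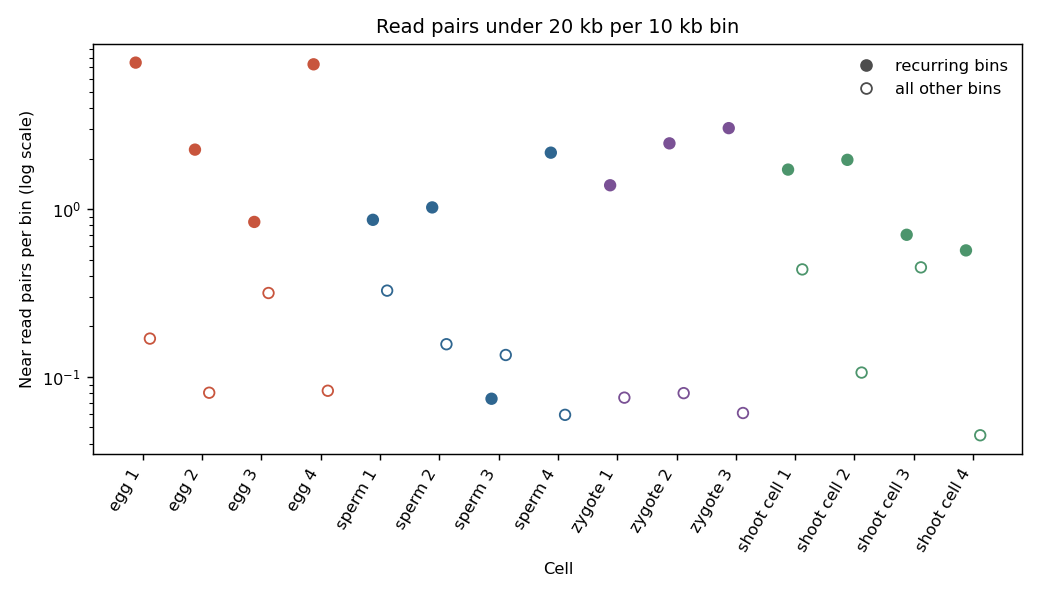
Near read pairs per bin (log axis) in each cell, recurring bins beside all other bins of the genome. The recurring bins are higher in 14 of 15 cells, the exception being sperm 3.

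Depth differed between cells, and an egg had on average 2327 ± 1534 contacts of all kinds (SD, n = 4), a sperm 1774 ± 1168 (SD, n = 4), a zygote 1002 ± 249 (SD, n = 3) and a shoot cell 2237 ± 1347 (SD, n = 4). Over the 15 cells, the share of far contacts at recurring bins had a Spearman's rho of -0.525 with the number of contacts. The rho was 0.839 with the near read pairs per recurring bin. It was -0.104 with the number of far contacts and 0.679 with the far share of contacts. The part of this depth in the shares at recurring bins was not tested. The number of read pairs behind a far contact was higher at recurring bins than at other bins in 8 of 15 cells.

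Over all cells, 1263 far contacts had both ends in recurring bins and 734 had 1 end there, and those with both ends were the more frequent in 10 of 15 cells. A link was a pair of recurring bins joined by far contacts in 2 or more cells. Of 599 pairs of recurring bins joined in any cell, 189 (31.6%) were links, and of 3826 bin pairs in all 215 (5.62%) were joined in 2 or more cells. Among pairs with 1 recurring bin 19 of 584 (3.25%) were joined in 2 or more cells, and among pairs with none 7 of 2643 (0.265%). The same contacts set membership and links, so this difference is a description. Links joined 130 of the 162 bins, and 32 bins had no link.

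The links fell into 9 linkage groups. The largest held 111 bins from 12 chromosomes and 177 links, of which 137 ran between chromosomes. Its most linked bins were the bin at 13.37 Mb of chromosome 12, with 16 links, the bin at 13.39 Mb with 14, the bins at 13.34 Mb and 13.38 Mb with 13 each, and the bin at 32.88 Mb of chromosome 4 with 12. The 4 most linked bins of the group thus lay close together on chromosome 12. The bin at 20.5 Mb of chromosome 12 and the bin at 13.64 Mb of chromosome 3 had 10 links each.

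The other 8 groups were small. The second joined 4 bins, at 28.38 and 33.58 Mb of chromosome 1, 2.75 Mb of chromosome 10 and 13.05 Mb of chromosome 12. Its 4 links formed a ring and were seen in 6, 4, 2 and 6 cells, and among its cells were eggs, a sperm, all zygotes and shoot cells. The third joined 3 bins, at 10.9 Mb of chromosome 3, 25.68 Mb of chromosome 6 and 19.55 Mb of chromosome 11, with links in 3 cells each. Of the 6 groups of 2 bins, the one seen in most cells joined 16.75 Mb of chromosome 2 to 1.49 Mb of chromosome 10 in 5 cells, 2 sperm, 2 zygotes and 1 shoot cell. The pair at 24.96 Mb of chromosome 4 and 14.77 Mb of chromosome 12 was joined in 4 cells, eggs and a zygote. The pair at 15.44 and 22.75 Mb of chromosome 10 was joined in 3 cells, 2 sperm and a zygote, and was the only one of the 6 within 1 chromosome.

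The link seen in most cells lay within chromosome 12, between the bins at 13.38 and 20.56 Mb. It had 37, 0, 0 and 5 read pairs in the eggs, none in the 4 sperm, 49, 17 and 11 in the zygotes, and 3, 5, 1 and 11 in the shoot cells. In all 9 cells with the link, the read pairs joined the same pair of fragments, chr12:13386094-13387360 and chr12:20559791-20560326. The sperm were the only cell type without it, at 0 of 4 cells, which had 1080 far contacts in all. One fragment pair counts at most once per cell, so its absence from sperm is not shown. Of its 139 distinct read pairs, 137 had both reads on the same strand and fell at one place, 31 on the plus strand and 106 on the minus strand.

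The next links were also built from few fragment pairs. The bin at 39.11 Mb of chromosome 1 joined that at 13.41 Mb of chromosome 12 in 7 cells, with 72, 33, 0 and 22 read pairs in the eggs, 0 in each sperm, 2, 0 and 6 in the zygotes, and 3, 4, 0 and 0 in the shoot cells. The fragments chr1:39111609-39112013 and chr12:13419112-13419328 carried it in all 7 cells. The bin at 13.64 Mb of chromosome 3 joined that at 12.88 Mb of chromosome 10 in 7 cells, with 0, 3, 0 and 34 read pairs in the eggs, 0, 1, 0 and 0 in the sperm, 1, 0 and 0 in the zygotes, and 2, 4, 0 and 2 in the shoot cells. At both links 1 or 2 eggs held most of the read pairs, and the fragments chr3:13642987-13644052 and chr10:12888746-12889461 carried the second one in all 7 cells.

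Not every frequent link rested on one pair of fragments. The bin at 39.11 Mb of chromosome 1 joined that at 13.38 Mb of chromosome 12 in 7 cells through 14 distinct contacts, and the commonest fragment pair appeared in 5 of them. The bins at 13.37 and 13.4 Mb of chromosome 12, the only one of the 10 most frequent links within a run of neighbouring bins, were joined in 7 cells, and the commonest fragment pair appeared in 3. The bin at 18.68 Mb of chromosome 1 joined that at 5.81 Mb of chromosome 8 in 6 cells, with 20, 0, 0 and 4 read pairs in the eggs, 0, 2, 0 and 0 in the sperm, 0, 6 and 0 in the zygotes, and 1, 0, 0 and 1 in the shoot cells. All its 34 distinct read pairs fell at one place, 33 of them in one strand combination.

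Links were then examined for whether different cells joined the same place. Where 2 stretches adjoin at one point, the reads of a pair flank that point, so the sum of the read starts (both reads on one strand) or their difference (reads on opposite strands) stays within about the size of a sequenced molecule. A link was said to have a fixed place when read pairs of 2 or more cells in one orientation fell within a window of 1000 bp in that sum or difference. By this measure 142 of 189 links (75.1%) had a fixed place, and in 124 every cell with the link was there. Of the 91 links in 3 or more cells, 79 had a fixed place shared by 3 or more. The read pairs at a fixed place spanned a median of 201.5 bp (range 7 to 999). This span is a spread between read pairs, is limited by the window and rests on few read pairs at some links. Inward-facing near read pairs had a median distance of 349 bp, which is a distance within a read pair and so an unlike measure.

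**Figure D3:**
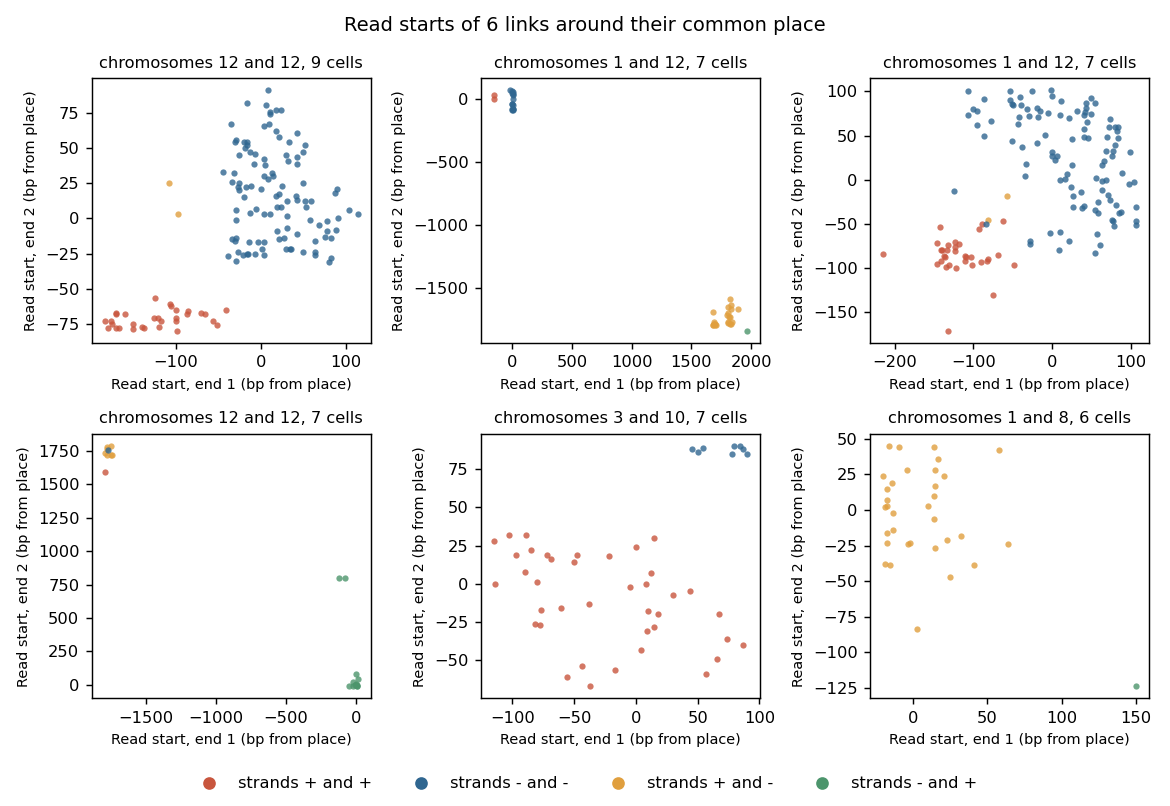
Read starts at both ends of 6 frequent links, in bp from the common place, 1 point per read pair and colour by strand combination (scales differ between panels). In 4 panels nearly all read pairs lie around one place, and the links joining 39.11 Mb of chromosome 1 to 13.38 Mb of chromosome 12 and 13.37 to 13.4 Mb of chromosome 12 show separate clusters.

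A fixed place was not particular to recurring bins. Of the 26 other bin pairs joined in 2 or more cells, 23 (88.5%) also had one. A fixed place also arises when the same pair of fragment ends is ligated in several cells, since the restriction cut sites do not move. The same fragment pair had been joined in 2 or more cells for 139 of 189 links (73.5%). Over all fragment pairs, 175 of 931 (18.8%) recurred in 2 or more cells where both ends lay in recurring bins, against 17 of 717 (2.37%) with 1 such end and 8 of 3505 (0.228%) with none, and the rule for members used these contacts.

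The recurrence was not one of identical read pairs. Of 5650 distinct far read places between recurring bins, 3 were found in 2 or more cells, and of 111085 over all read pairs 12 were. Read starts at the ends of a fixed place ranged over medians of 112.5 and 116.5 bp.

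Strand use was counted over all far contacts and for each link. Over all far contacts with both ends in recurring bins the 4 strand combinations were close to even, with shares of 21.1% to 26.4%. For the 46 links with at least 5 contacts, the commonest combination took a median of 77.5% of contacts (SD 17.6, n = 46 links), with 10 links at 100%. With few contacts per link, the largest of 4 shares lies above an even share also when strands are random, and that level was not computed. All read pairs of 103 of the 189 links were in one orientation, and some of these links had only 2 or 3 read pairs. Of the 142 fixed places, 76 joined the stretches in opposite directions (both reads on one strand) and 66 in the same direction. Both strand combinations of the orientation were present at 48, with at least 10% of read pairs in the lesser one. Any read pair in the lesser combination was seen at 62. Reads that flank and face a single join give a single strand combination, so the lesser one is not a second view of the same join. Links share bins and libraries, so they are not independent.

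The molecule sizes gave a further measure of ligation. If a read pair had been ligated at its fragment ends, the joined molecule would span the 2 distances from the read starts to those ends. That size exceeded 500 bp, the upper end of the sheared sizes in the labels' protocol, in 66.4% of far read pairs with both ends in recurring bins, in 59.98% of far read pairs with none and in 22.7% of near read pairs. The share was higher for recurring bins than for other far read pairs in 10 of 15 cells. It rested on only 8 far read pairs between recurring bins in sperm 3, 15 in egg 3 and 18 in shoot cell 3. Egg 4 gave 1560 of the 5653 such read pairs over all cells. All sizes lay between 100 and 2000 bp, the range that the deposited read pairs cover.

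The question of one continuous molecule was put to the network. If only neighbours in an unbranched chain of bins were joined, each bin would have at most 2 links. Pieces that do not adjoin can also be ligated, and a bin can hold several joined stretches, so link counts cannot decide the question. In the largest group, 37 bins had 1 link, 27 had 2 and 47 had 3 or more, and the network held 67 independent loops. At the links with a fixed place, read pairs were gathered into sites of 300 bp with one facing. These 290 sites lay in 121 bins, and 217 of them (74.8%) led to 1 partner bin, 52 to 2 and 21 to 3 or more. A single bin held up to 10 sites. Many bins had only 1 partner bin at fixed places, so their sites could lead to no other. The share of sites with 1 partner is partly set by this and does not decide the question. Links without a fixed place and pairs joined in 1 cell gave no site, so the shares do not cover all far contacts of the bins.

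The facing of sites was compared with that of pieces read outward from both ends. In 54 bins, sites facing both ways led to different partners, which gave 391 pairs of sites, 236 (60.4%) of them facing outward. In the 15 bins whose far contacts spanned under 1 kb, 44 of 47 site pairs faced outward, at a median of 160 bp (range 4 to 825). In the 39 larger bins 192 of 344 did. Site edges were taken at the far end of reads, so reads on the same stretch give an outward distance by construction, and the compact bins are affected by this.

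Rings of 3 bins joined by fixed places gave another view. There were 16, and in 14 the strands of the 3 joins were compatible with each other around the ring, though 13 of the rings include a bin whose far contacts span under 1 kb. The rings share bins and joins, so they are not separate cases. Several lie among the bins at 27.84 Mb of chromosome 1, 14.18 Mb of chromosome 6, and 4.67 and 17.34 Mb of chromosome 12. How many rings would close with arbitrary strands was not computed. The joins with fixed places linked 121 bins in 12 groups, the largest with 91 bins.

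A linear order of the largest group was sought by placing linked bins close to each other along one axis. In that order, 22.9% of the linkage (interval 19.4% to 26.7%, each cell's link counted once) lay between bins up to 3 ranks apart. Links share bins and cells, and the order was fitted to them, so the interval does not measure the uncertainty of the order. The share was 37.7% without egg 1, 43.6% without egg 4 and 44.4% without zygote 3. Orders computed from pairs of recurring bins joined in any egg or sperm, and from those joined in any zygote or shoot cell, had 13.5% and 16.8% within 3 ranks. Over the 107 bins in both orders the size of Spearman's rho was 0.347, the direction of an order being arbitrary. Those cells had 417 and 323 joined pairs, of which 141 were shared, or 33.8% and 43.7% of each. With all 15 cells the computed order thus left most of the linkage between bins over 3 ranks apart. The share that a random order of these bins would give was not computed, so the value does not decide whether the group is linear. Whether another order, or several molecules with shared stretches, would place more of it was not tested.

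**Figure D4:**
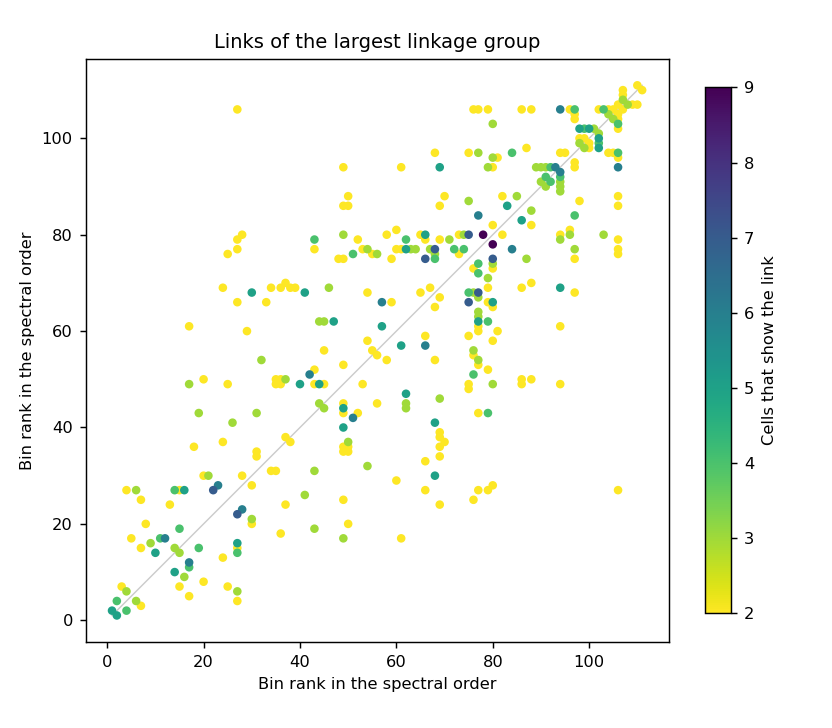
Links within the largest linkage group, with both axes giving the bin's rank in the computed order and colour the number of cells that show the link. Links lie both near the diagonal and far from it, and 22.9% of the linkage is within 3 ranks.

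Links were also counted by the cell types that showed them. Of the 189 links, 162 were seen in some egg, 57 in some sperm, 115 in some zygote and 77 in some shoot cell. Most, 115, were seen in 2 cell types, 43 in 3 and 7 in all 4, and 24 were seen in 1. A link needs 2 or more cells by its rule, which by itself favours more than 1 cell type. The spread that the rule alone would give was not computed. Eggs had 363 joined pairs of recurring bins, of which 44.6% were links, sperm 97 with 58.8%, zygotes 239 with 48.1% and shoot cells 122 with 63.1%. The number of joined pairs differed with the share of far contacts at recurring bins, so counts of links are not compared between cell types.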

How the data were processed

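Each of the 15 libraries is 1 rice cell. The authors deposited 1 text file per cell in the NCC format, each line a read pair with chromosome, read position, restriction fragment and strand of both ends. These are positions and identifiers, not a normalised value. Per the labels' protocols, each fixed cell was digested, ligated, amplified over the whole genome, sheared and sequenced. For the genome build, the aligner and the caller, a name is not given in the sources used here. A RefSeq gene table of a different assembly was not used. The members and lists were chosen with earlier results of these data known.

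Contacts were distinct fragment pairs per cell, and far contacts were between chromosomes or at 20 kb or more. Bins of 10 kb, links (2 or more cells) and linkage groups were computed in Python 3.11.15 with numpy 2.4.6, pandas 2.3.3, scipy 1.17.1 and networkx 3.6.1, and drawn with matplotlib 3.10.9. The named bins were the 10 seen in most cells and the named links the 10 joined in most cells, with ties by far contacts. Intervals are exact Clopper-Pearson at 95% and cover counting error only. The choice of bins, the linkage groups, the order and the strand shares were checked on simulated data with 1 planted chain. Fixed places, sites, rings, molecule sizes and read depth were not checked in this way. No test between cell types was made, as each type is 1 sample. The deposited key of chain letters was left out.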

Additional observations from a re-analysis of the deposited data

Results flagged for a closer look

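Sperm 4 lay apart from the other sperm in its near read pairs per recurring bin over those per other bin, at 36.6 against 2.64, 6.54 and 0.548. It was the only value that stood apart in this way among 27 groups of 4 cells examined, and chance marks about 1 in 20 such groups. Sperm 4 also had the fewest contacts of all cells, at 761, and its part in the ratio was not tested.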

How the results depend on the processing

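Of 328 values recomputed under 26 other settings, 304 kept within the limits set for them. These were 1 SD over the cells averaged for shares and depth, 1 SD over links for strand use, the exact interval for the share of linkage and of fixed places, and 1.5 times for a count. Some limits were too wide for most values to leave, at 32.7 percentage points for the egg share and 0.292 around a median depth ratio of 0.186. The share of linkage up to 3 ranks apart kept within its limit in only 7 of 24 settings. With only fragment pairs of 2 or more read pairs, 104 bins recurred, and the largest linkage group had 47 bins. With cells thinned to the same number of far contacts, 93 bins recurred, the largest group had 30 bins, 5 linkage groups had 3 or more bins, and the zygote share at bins chosen without zygotes was 52.3%. With links required in 3 or more cells, the largest group had 62 bins. The share of linkage up to 3 ranks apart was 28.3% for bins in 4 or more cells, 30.8% with 20 kb bins, 26.8% with contacts between chromosomes only, 61.7% with 2 or more read pairs, 80.9% after thinning, 58.1% with links in 3 or more cells and 33.3% without shoot cells 3 and 4. Leaving out each cell in turn gave 20.5% to 44.4%. The cause of these changes was not tested, although fewer bins and links remain in the thinned and stricter settings.

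Leaving out each cell in turn gave 138 to 161 recurring bins, 95 to 111 bins in the largest group and a sperm share of 11.1% to 25.5%. Fixed places numbered 135 with a window of 500 bp and 147 with 2000 bp, both widths chosen after seeing the data. No paired analysis was possible because the cell numbers only name cells and no test was made between cell types. With 130 to 558 far contacts per cell, a bin or link unseen in a cell is not shown to be absent from it.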
